A study of Mus musculus with 4 samples.

Results

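The 10 genes described here make autophagosomes or bring cargo to them. They were taken by gene symbol from 14386 named genes on the arrays. They are Map1lc3a, Map1lc3b, Gabarap, Gabarapl1, Gabarapl2, Sqstm1, Becn1, Atg5, Atg7 and Atg12, and each was measured by 2 spots that share an accession. Map1lc3b was chosen by its measured day 10 minus day 3 difference, the other genes by their place in the same pathway, so that difference is a description and carries no support of its own. CGR8, a mouse embryonic stem cell line, was grown undifferentiated (day 0) or differentiated in hanging drops as embryoid bodies, aggregates in which several lineages form, and collected at day 3 or day 10. No treatment or allele is named for any group. Total RNA of day 3 or of day 10 was hybridised with day 0 RNA on spotted arrays with 2 channels. There were 2 arrays for each day, the second of which is labelled a technical replicate. Each day is thus 1 RNA pair, and no test was possible. Every SD below is technical error over the 2 arrays of a day. For a difference between days it is the square root of the summed squares of the SDs of both days.

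Autophagy encloses cytoplasm in a double membrane, the autophagosome, which then fuses with a lysosome. Small ubiquitin-like proteins of the LC3 family (Map1lc3a, Map1lc3b) and the GABARAP family (Gabarap, Gabarapl1, Gabarapl2) are joined to lipid on that membrane. Atg7 is the activating enzyme for this step, the Atg12 protein joined to Atg5 acts in the transfer, Becn1 (beclin 1) belongs to the lipid kinase complex that starts the membrane, and Sqstm1 (p62) is a receptor that carries cargo to LC3. Autophagy is active in early mouse embryos and in stem cells that leave the undifferentiated state.

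The deposited value of a spot is the log2 ratio of the channels, centred here on the array median, and the value of a gene is the mean of its spots. The sources used here do not name the numerator channel, so "positive side" and "negative side" give the deposited sign and do not say which day had more RNA. In a mixed aggregate, fewer cells of a type and less RNA per cell cannot be told apart. A gene was called where both arrays of a day lay at least 1 log2 unit (2-fold) from 0 on one side. For day 10 minus day 3, all 4 differences between an array of one day and an array of the other had to be at or beyond 1 with one sign. The day 0 RNA and the numerator channel were taken as common to the arrays, which the labels do not state. Were the numerator to differ between the days, the differences and changes of side below would not hold.

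Map1lc3b was on the negative side at day 3 and on the positive side at day 10. Its centred log2 ratios were -2.71 and -0.27 at day 3, against 1.44 and 1.74 at day 10. All values of day 10 were above all values of day 3, and the day 3 arrays stood much farther apart than the day 10 arrays. The means were -1.49 ± 1.72 (SD, n = 2 technical arrays, as for all gene means of a day) at day 3 and 1.59 ± 0.21 at day 10. Map1lc3b was the only one of the 10 genes called at day 10 (1 of 10), where 3.54% of all 13199 measured genes were called. Its day 10 values are part of the contrast that chose the gene, so nothing is read from this count either. None of the 9 members with a value on both day 3 arrays was called at day 3, where 2.80% of 13707 genes were.

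The day 10 minus day 3 difference of Map1lc3b was 3.08 ± 1.74, or 8.44-fold, and the differences between single arrays ran from 1.71 to 4.45. Its size rests in good part on the first day 3 array: without that array the difference was 1.86, and without the second day 3 array it was 4.30. It was the only called member of 9, beside 3.54% of 12654 genes. Since this contrast chose the gene, nothing is read from that count.

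**Figure D1:**
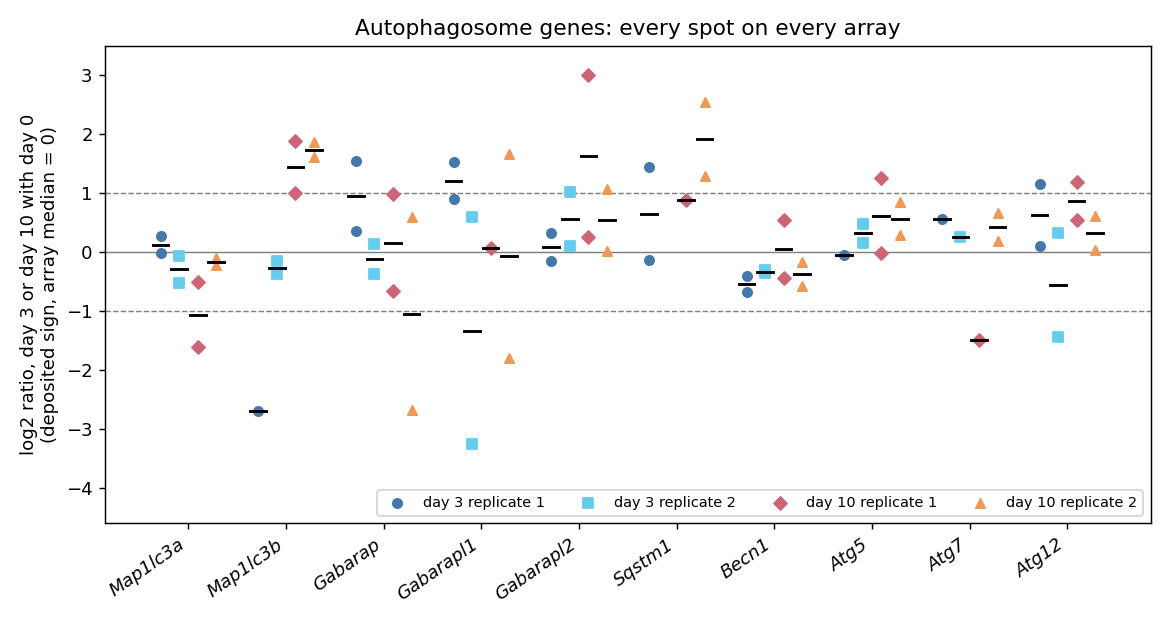
Centred log2 ratio of every spot (points) of the 10 genes on the 4 arrays, with the gene value on each array as a black bar; dashed lines mark 2-fold and a missing point is a spot with no value. The Map1lc3b bars lie at -2.71 and -0.27 on the day 3 arrays and at 1.44 and 1.74 on the day 10 arrays.

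The spots of Map1lc3b are also given separately. The first spot had no value on the first day 3 array. It had -0.16 on the second, 1.88 on the first day 10 array and 1.62 on the second. The value of -2.71 therefore came from the second spot alone, which had -0.38 on the second day 3 array, and 1.0001 and 1.86 on the day 10 arrays. The differences between days were 1.77 and 2.04 for the first spot, and 1.38 to 4.57 for the second. These are the values by which the gene was chosen, so the likeness of the spots is a description too.

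The deposited ratios have 9 decimals, and many of them are exact ratios of whole numbers, from which the brightness of a spot can be read in part. The smallest whole numbers that give a value are a lower bound on the channel values, because a common factor is lost. For Map1lc3b they were 55 and 366 for the second spot on the first day 3 array, the source of the value of -2.71. On the second day 3 array they were 124 and 141 for the first spot, and 100 and 133 for the second. The second spot had 1682 and 3329 on the first day 10 array, and 605 and 2138 on the second. The first spot gave numbers above 10000 on both day 10 arrays. Both channels of Map1lc3b were thus recovered at no more than 366 on the day 3 arrays and at no less than 605 on the day 10 arrays, although 1 channel on every array held day 0 RNA. The part of this gap in brightness in the day 10 minus day 3 difference was not tested.

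Ratios of dim spots spread more widely across the whole array. The recovered brightness of a spot is the geometric mean of its pair of whole numbers, and pairs above 10000 count as bright. Whether the order of brightness among such pairs follows the channels was not tested. Among all named spots, 45.6% of values with a mean below 100 were beyond 2-fold, 31.1% of those from 100 to 1000, 18.4% of those from 1000 to 10000, and 13.7% of brighter ones. The members had 23 of 71 values beyond 2-fold, beside 20.4% of all values. All 6 member values below 100 were among these 23, as were 7 of 19 from 100 to 1000, 6 of 31 from 1000 to 10000, and 4 of 15 brighter ones. The 23 include the Map1lc3b values -2.71, 1.88, 1.62, 1.0001 and 1.86, by which that gene was chosen. Of these, 1.88 and 1.62 were among the brighter ones. No member lay in the brightest 25% of genes. The brightness percentile ran from 7.99 (Gabarapl1) to 73.1 (Map1lc3a) and was 20.0 for Map1lc3b.

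**Figure D2:**
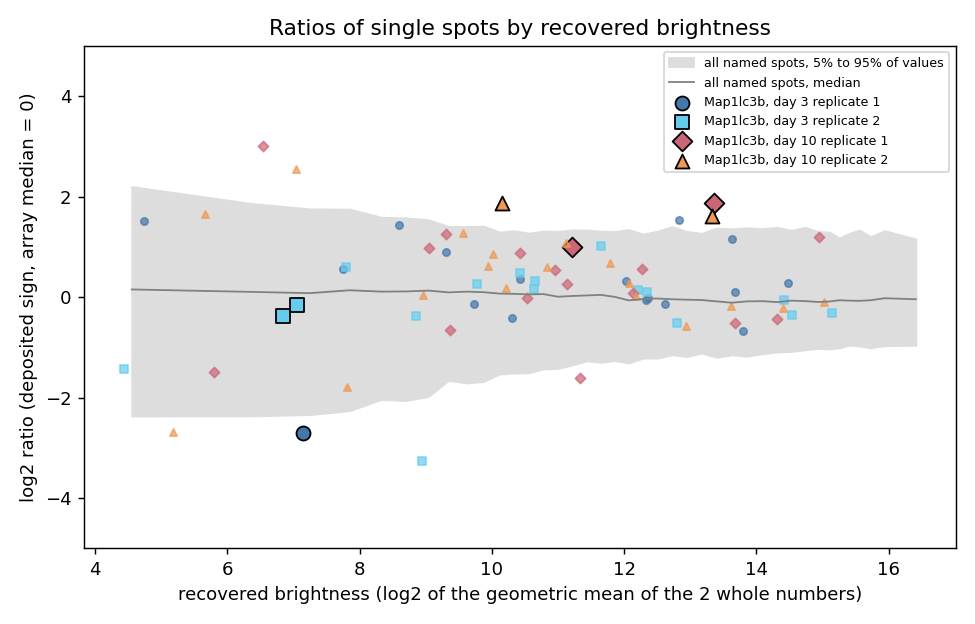
Centred log2 ratio of single spots against recovered brightness, for the members (small points) and Map1lc3b (large outlined points), with the range that holds 5% to 95% of all named spots in grey. The Map1lc3b spots of the day 3 arrays lie at the dim end, where the grey range is wide, and those of the day 10 arrays lie among brighter spots.

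Map1lc3a, the closest relative of Map1lc3b on the list, had days that overlapped. It had 0.13 and -0.29 at day 3, against -1.06 and -0.16 at day 10. Its day 10 minus day 3 difference was -0.53 ± 0.70, smaller than its SD. Its second spot had -1.61 on the first day 10 array while its first spot had -0.51, so the one array value beyond 2-fold came from 1 spot. Map1lc3a had the highest recovered brightness of the 10 genes, in part from pairs with numbers above 10000.

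Of the GABARAP family, Gabarapl2 lay on the positive side on all 4 arrays. It had 0.08 and 0.56 at day 3, against 1.63 and 0.55 at day 10. The days overlapped and the means were 0.32 ± 0.34 and 1.09 ± 0.77, the latter not called because the second array was within 2-fold. On the first day 10 array its spots read 3.00 and 0.26. The reading of 3.00 was the highest of all member spots, and it came from the whole numbers 33 and 262. Gabarapl2 was first described as a Golgi transport factor (GATE-16).

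Gabarap and Gabarapl1 had arrays that disagreed in sign. Gabarap had 0.95 and -0.12 at day 3, against 0.16 and -1.04 at day 10, with means of 0.42 ± 0.76 and -0.44 ± 0.85. Gabarapl1 had 1.21 and -1.34 at day 3, against 0.07 and -0.07 at day 10. Its day 3 mean of -0.06 ± 1.799 and day 10 mean of 0.00 ± 0.10 hide spots that went opposite ways: on the second day 10 array they read 1.66 and -1.80, and on the second day 3 array -3.27 and 0.59. The first Gabarapl1 spot had no value on the first day 10 array, so 0.07 came from the second spot alone. The smallest whole numbers were 14 and 93 for the Gabarap spot at -2.69 on the second day 10 array, and 16 and 45 for the Gabarapl1 spot at 1.52 on the first day 3 array. Neither gene separated the days. Whether spots of one family member also bound RNA of another was not tested.

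Sqstm1, the cargo receptor, was on the positive side on each of the 3 arrays that gave it a value. It had 0.65 on the first day 3 array, no value on the second, and 0.88 and 1.92 on the day 10 arrays. The day 10 mean was 1.40 ± 0.73, past 2-fold as a mean but not called, since the first array fell short of 1. Both of its spots lacked a value on the second day 3 array, so it has no day 3 mean and no difference between days. The highest reading, 2.56 on the second day 10 array, came from the whole numbers 55 and 314.

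Atg5 had the closest day 10 arrays of the 10 genes. It had -0.06 and 0.32 at day 3, against 0.62 and 0.57 at day 10, and the days did not overlap. The means were 0.13 ± 0.27 and 0.59 ± 0.04, and the difference of 0.46 ± 0.27 was within 2-fold. Apart from Map1lc3b it was the only member whose days did not overlap, which makes 2 of 9, beside 43.3% of all genes. Its first spot had no value on the first day 3 array, and its second spot, with a value on every array, had days that overlapped. With that spot alone the day 10 mean was 0.13 and the difference 0.08. The spots read 1.25 and -0.02 on the first day 10 array, a gap wider than the difference between the days.

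Atg12, the partner of Atg5, had 0.63 and -0.56 at day 3, against 0.87 and 0.32 at day 10. The days overlapped, and the means were 0.04 ± 0.84 and 0.60 ± 0.39. The first spot read 1.16 and -1.44 on the day 3 arrays, the latter from the whole numbers 13 and 36. Atg7, the activating enzyme of both conjugation steps, had 0.56 and 0.26 at day 3, against -1.495 and 0.43 at day 10. Only 5 of its 8 spot values were present, and -1.495 was a single spot, recovered as 33 and 94, so its day 10 mean of -0.53 ± 1.36 has no clear side. None of Atg5, Atg7 and Atg12 was called at either day, where 2.80% (day 3) and 3.54% (day 10) of all genes were.

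Becn1, which starts the membrane with the lipid kinase Pik3c3, was with Map1lc3a one of the 2 members of highest recovered brightness. It had -0.55 and -0.33 at day 3, against 0.06 and -0.37 at day 10. The day 3 mean of -0.44 ± 0.15 had the smallest SD of the members at that day and stayed within 2-fold. The days overlapped, with a difference of 0.28 ± 0.34.

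**Figure D3:**
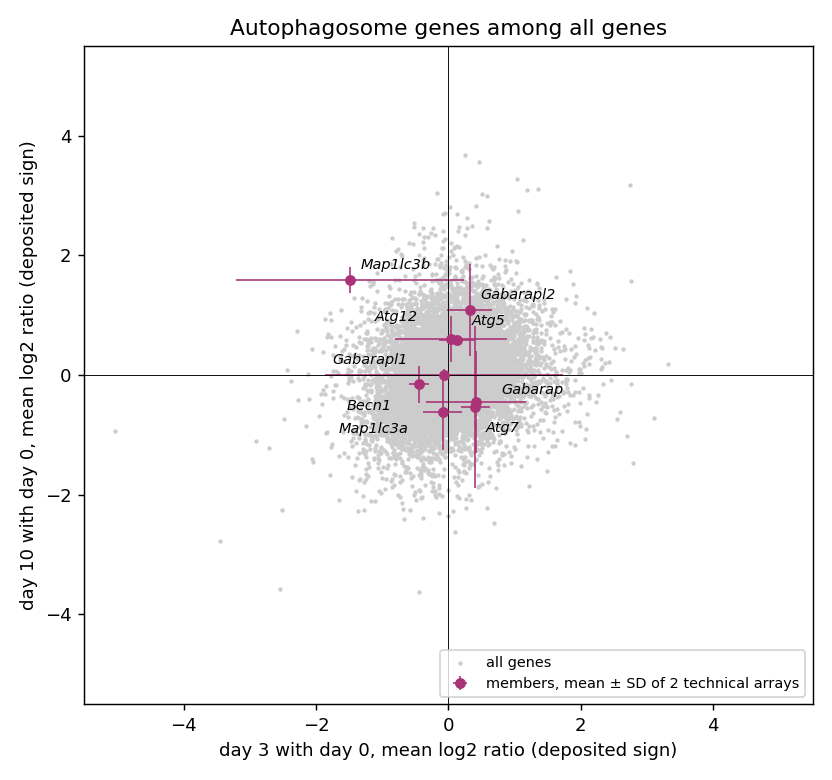
Mean log2 ratio at day 10 against that at day 3 for all genes with both values (grey) and for the 9 members with both (purple). Bars are the SD of 2 technical arrays, and both axes are taken to share the day 0 RNA and the numerator channel. Map1lc3b, at -1.49 and 1.59, lies at the upper left edge of the cloud of all genes and the other members lie within it.

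The median of the 10 genes lay close to that of all genes at day 3 and within the middle range of all genes at day 10. Their median was 0.04 at day 3 (9 genes), where all genes had 0.01, and 0.30 at day 10 (10 genes), where all genes had -0.01. The middle 50% of all genes ran from -0.38 to 0.40 at day 10, which holds the members' median. That range is of single genes and a median of 10 genes varies less, so it cannot decide whether the members were shifted. With only spots that had values on all 4 arrays, the members' median at day 10 was -0.01 (8 genes), so its side depends on that choice. Technical arrays gave the same sign for 4 of 9 members at day 3 and 6 of 10 at day 10, beside 64.7% and 60.8% of all genes. Of the members' 80 possible spot values 9 were missing, or 11.2%, beside 12.9% over all named spots. The gap between the spots of a gene on one array had a median of 0.48 to 1.10 over the members on the 4 arrays, and of 0.33 to 0.54 over all genes with 2 spots.

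The genes whose pattern was most like that of Map1lc3b were found by the Euclidean distance over the 4 centred array values, among 12654 genes. They were Syngr4 (a synaptogyrin) at 0.77, Camk2g (a calcium and calmodulin dependent kinase subunit) at 0.91, Pax1 (a paired box transcription factor) at 1.01, S100a5 (a small calcium-binding protein) at 1.05 and Acsl4 (an acyl-CoA synthetase) at 1.08. All 5 had their lowest value on the first day 3 array, between -2.61 and -1.83, and all 5 were dim, with brightness percentiles from 4.36 to 23.7. Of the other members Atg5 was nearest, at a distance of 3.07 and rank 1618. With 4 arrays this likeness is a description.

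The rest of the pathway was read from lists of its steps, which give 102 further genes, 84 of them on named spots. None of 81 with a value was called at day 3, 1 of 78 at day 10 (1.28%) and 2 of 76 between the days (2.63%), beside the 2.80%, 3.54% and 3.54% of all genes given above. The median of these genes was 0.01 at day 3, -0.07 at day 10 and -0.13 for day 10 minus day 3. Counts of 0 to 2 genes do not set these genes apart from the array as a whole.

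Atg9b, a membrane protein of the lipid supply, was the gene called at day 10. It had 0.46 and 0.71 at day 3, against 1.04 and 1.14 at day 10, with a day 10 mean of 1.09 ± 0.08. The 2 genes called between the days belong to the lysosome. Glb1, the lysosomal beta-galactosidase, had -1.32 and -0.81 at day 3, and 1.49 and 0.38 at day 10, a difference of 1.996 ± 0.87. Atp6v0d1, a subunit of the proton pump that acidifies lysosomes, had -0.997 and -0.39 at day 3, and 0.65 and 1.01 at day 10, a difference of 1.52 ± 0.50, and was dim (brightness percentile 5.60). Both went from the negative to the positive side, as Map1lc3b did. All 3 were picked by this contrast between the days, so nothing is read from that likeness. Over all genes, 13.96% changed sides in either direction. Of the 18 lysosomal genes with a difference between the days, 9 were positive and 9 negative.

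By step, the median at day 3 and at day 10 was 0.13 and -0.39 for the Ulk1 initiation complex (4 genes at each day), and -0.02 and -0.26 for the class III PI3-kinase complex (6 and 5). It was 0.29 and 0.09 for lipid supply and WIPI proteins (7 and 7), and -0.02 and -0.22 for the other conjugation enzymes (5 and 5). The day 10 means of those 5 enzymes were negative, but 2 of the 5 were negative on both arrays. The other cargo receptors had 0.23 and 0.05 (11 and 11), tethering and fusion genes 0.23 and 0.06 (10 and 9), lysosomal genes 0.14 and 0.04 (19 and 18), and upstream signalling and transcription genes -0.15 and -0.15 (19 and 19). No step had a median beyond 0.39 on either side. Microtubule-associated proteins, the family for which LC3 was named, had -0.09 and -0.02 (6 and 5). Among them Mapt (tau) was called at day 3 at -1.04 ± 0.05, and stood at -0.91 ± 0.02 at day 10 with a brightness percentile of 90.5.

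**Figure D4:**
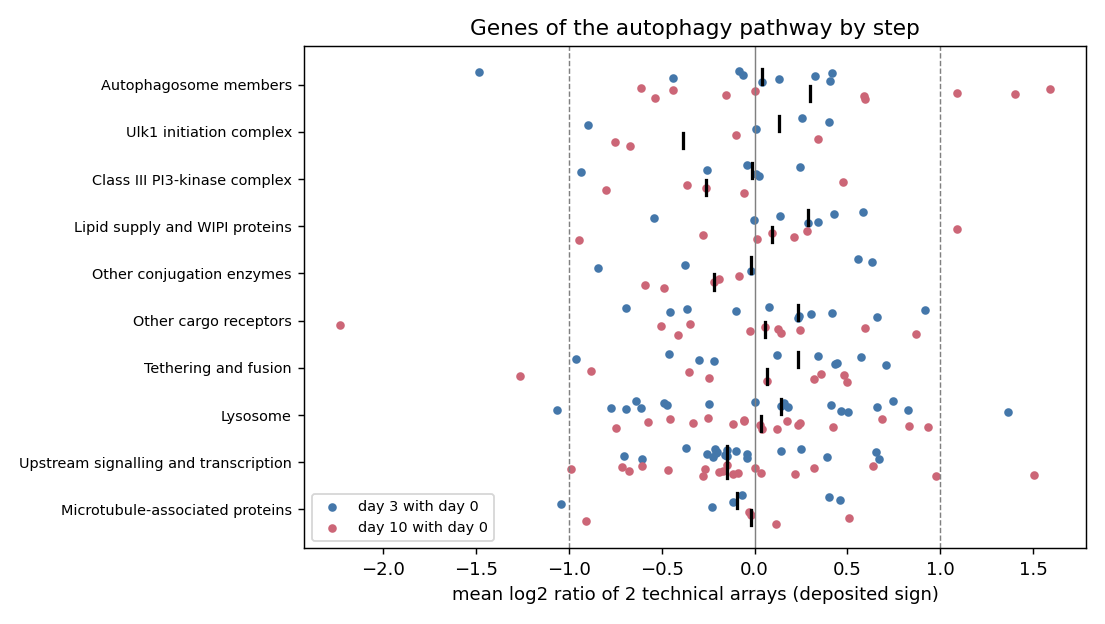
Mean log2 ratio at day 3 (blue) and day 10 (red) of the genes of each step of the autophagy pathway, with list medians as black bars and dashed lines at 2-fold. Nearly all genes lie between the dashed lines at both days, and the medians of the steps lie between -0.39 and 0.30.

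Markers were read to check the labels. Of 12 markers of pluripotent stem cells, 10 of 11 with a value were on the negative side at day 3, with Dppa5a called at -2.71 ± 0.04. Of all genes, 50.5% were on the positive side at day 3 and 49.3% at day 10. At day 10, 6 of 10 markers were on the negative side, 4 were on the positive side and none was called. Fgf4, a growth factor of stem cells, was among those 4 with a mean of 1.25. It was dim (brightness percentile 23.7), and it was called between the days at 1.602 ± 0.41. Markers of visceral and parietal endoderm had medians of -0.13 and 0.32 at day 3 and day 10. Apob was called at day 3 (1.29 ± 0.35), while 7 of 12 were on the negative side there. Markers of mesoderm and heart had -0.24 and -0.12. Mesp1 was called at day 3 (1.97 ± 0.10), while 5 of 9 were on the negative side there. Apob and Mesp1 were dim (brightness percentiles 5.27 and 11.4), and each lacked a value on a day 10 array. Neural markers had 0.46 and 0.15, with 6 of 7 on the positive side at day 3 and Neurog2 called there (1.22 ± 0.19). Fibroblast feeder markers had 0.20 and -0.22 with no call. The part of any of these cells in the values of Map1lc3b was not tested.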

How the data were processed

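Total RNA was measured on 4 spotted arrays with 2 channels. The authors deposited a single table of spot values, read here as log2 ratios of the channels from the values themselves. The sources used here name no scanner, software, dyes, background treatment or numerator. Of 46128 spots per array, 32544 had 1 gene symbol in the platform's annotation, 588 had several (none a member) and 12996 were unnamed. Among the 32544, 480 were taken as controls and left out, which left 32064 named spots. Spots with a value numbered 37471 to 41386 per array, and the number of arrays limits the precision. Array medians were set to 0 and a gene took the mean of its spots. The smallest pair of whole numbers was taken for every value. Both numbers were at or below 10000 for 59.3% to 62.0% of the values of an array, and larger pairs also entered the brightness. Only the calling rule and the recovery of whole numbers were tried on simulated data, the recovery on numbers well below 10000. Centring and the averaging of spots were not tried this way. Members and lists were chosen with earlier results of these data known. All members were named, with the 2 called genes of each list farthest from 0 in each comparison and the 5 genes nearest to Map1lc3b, leaving out RIKEN, EST and predicted names. Alternatives were no centring, another use of the spots, a brightness trend removed in 50 bins, a common spread, other limits, and each array left out. Python 3.11.15, numpy 2.4.6, pandas 2.3.3 and matplotlib 3.10.9 were used.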

Additional observations from a re-analysis of the deposited data

Results flagged for a closer look

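Both day 3 arrays were on one side of 0 and both day 10 arrays on the other for 7 of the 28 genes named, and the difference was not tested. These were Map1lc3b with a day 10 minus day 3 difference of 3.08, Glb1 with 1.996, Atp6v0d1 with 1.52, Fgf4 with 1.602, S100a5 with 2.16, Acsl4 with 2.35 and Bnip3l with 0.70. All 7 went from the negative to the positive side. Map1lc3b was 1 of 9 members to do so, and 13.96% of 12654 genes changed sides in either direction. The named genes were partly chosen by such values, so their number is no measure of how often this occurs.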

How the results depend on the processing

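The day 10 minus day 3 difference of Map1lc3b kept its sign and was between 2.98 and 3.29 with no centring, a common spread, the brightness trend removed and every other use of the spots. It ran from 1.86 to 4.30 with each array left out. Calls depended more on the limit and on single arrays. Map1lc3b was chosen by these values, so nothing is read from the counts that include it. With a limit of 1.5-fold, 2 members (Map1lc3b and Sqstm1) were called at day 10, where 13.96% of all genes were. With 4-fold, 0 members were called at day 10 and 0 between the days, beside 0.220% and 0.356% of all genes. With 2-fold on the mean alone, 1 member (Map1lc3b) was called at day 3 and 3 (with Gabarapl2 and Sqstm1) at day 10, beside 7.97% and 10.6% of all genes. Leaving out single arrays gave 1 to 2 members at day 3, 3 to 4 at day 10 and 1 to 3 between the days. With fewer arrays to pass, 12.8% to 14.4%, 16.2% to 20.4% and 10.01% to 15.4% of all genes were then called. Without the second day 3 array Map1lc3b and Gabarapl1 were called at day 3, and without the first Gabarapl1 alone. Other member values were compared with the SD of their arrays under the alternatives that could move them past it, which leaves out single arrays and the median of 2 spots. Of 129 such values 15 moved by more, among them Atg5 at day 10 (0.13 with spots valued on all 4 arrays). No paired analysis was possible because the labels number no replicates across days and no test was run. With 2 technical arrays of 1 RNA pair per day, biological variation was not measured.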

Other observations

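A few other genes of the lists were chosen after their values were seen. Bnip3l, a receptor for the removal of mitochondria by autophagy, had -0.18 and -0.02 at day 3, against 0.57 and 0.62 at day 10. Its difference of 0.70 ± 0.12 was within 2-fold, and the gene was bright (brightness percentile 92.1). Lamp1, a major lysosomal membrane protein, had -0.64 on each day 3 array, and -0.31 and -0.19 on the day 10 arrays, a difference of 0.39 ± 0.09 at a brightness percentile of 96.7. Ddit4, a stress-induced inhibitor of the mTOR pathway, had -0.17 and 0.08 at day 3, against 2.01 and 0.998 at day 10. Its difference was 1.55 ± 0.74, with single array differences from 0.92 to 2.18, just short of a call. Tax1bp1, a cargo receptor, had the lowest day 10 mean of the pathway lists, -2.23 ± 2.99, from -4.35 on one array and -0.12 on the other.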
